A study of Nothobranchius furzeri with 20 samples.

Results

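The livers of 27-week turquoise killifish (Nothobranchius furzeri) were compared with those of 9-week fish at one dose of rotenone, 1% of the LC50, the concentration lethal to 50% of animals. The 10 libraries, 5 at each age, were chosen from the 20 of the series by the age and dose in their labels. Both groups were rotenone-exposed males of strain MZM-04/10p, which descends from wild-caught fish, and they differed in their labels by age alone. A further 5 libraries from 9-week males of the same strain at 10% of the LC50 entered the fit, because the authors deposited the 3 groups in one count table. The series' 5 libraries from 9-week males at 0.1% of the LC50 served in 1 alternative fit. No untreated fish of either age were analysed here, so a difference with age cannot be told apart from a response to rotenone that depends on age. Nothing in the labels says that the libraries of a group are from different animals, and the p-values rest on the spread among libraries, which may be technical.

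Rotenone blocks complex I of the mitochondrial respiratory chain, where electrons pass from NADH to ubiquinone. The turquoise killifish lives in seasonal ponds, and its very short lifespan has made it a model of vertebrate ageing. Liver RNA is dominated by a small number of very abundant transcripts, mainly of plasma proteins and apolipoproteins, so the share of counts held by the leading genes is a basic property of a liver library. The gene identifiers of the files are not paired with gene names here, so the genes are described by their levels and changes, without functions, and the liver label could not be checked against marker genes.

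Library depth overlapped between the ages, with 23546777 to 33680568 counts at 27 weeks and 25380870 to 33870946 at 9 weeks. The 27-week libraries correlated with each other at Spearman's rho of 0.926 to 0.967 across the 16150 genes tested (10 pairs, genes not being independent replicates). Of the 9-week libraries, 4 correlated with each other at 0.929 to 0.961 (6 pairs), while replicate 5 correlated with these at 0.813 to 0.843 and with the 27-week libraries at 0.797 to 0.825. Replicate 5 at 9 weeks therefore stood apart from both groups, and several results are given with and without it. Its level was more than 8-fold below the median of the other 9-week libraries in 1148 genes and more than 8-fold above it in 136.

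The 10 most abundant genes of a library held a smaller share of its counts at 27 weeks. Each library's own leading 10 genes held 20.9%, 19.2%, 16.7%, 21.1% and 16.6% of counts in replicates 1 to 5 at 27 weeks, against 27.1%, 29.7%, 20.2%, 22.2% and 25.8% in replicates 1 to 5 at 9 weeks. Only replicate 3 at 9 weeks lay within the 27-week range. The means were 18.92% ± 2.19 at 27 weeks, against 24.99% ± 3.80 at 9 weeks (SD, n = 5 each), with p = 0.0238 in a two-sided exact permutation test over libraries. Adjusted over the 13 measures compared per library by the Benjamini-Hochberg method, the exact test gave p = 0.0774, so the difference missed the threshold of 0.05 after adjustment. Without replicate 5 at 9 weeks the difference was -5.87 percentage points (exact permutation p = 0.0476, unadjusted), against -6.07 with it.

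The difference was smaller over longer lists of genes. The leading 100 genes held 42.6% to 50.2% at 27 weeks and 46.5% to 55.0% at 9 weeks, with means of 46.5% ± 3.3 and 50.6% ± 4.0 (SD, n = 5 each; exact permutation p = 0.135, adjusted 0.186). The ranges overlapped for most libraries. The leading 1000 genes held 78.1% ± 2.1 at 27 weeks, against 79.8% ± 3.5 at 9 weeks (SD, n = 5 each; exact permutation p = 0.421). Between 99 and 160 genes made up 50% of the counts at 27 weeks, and between 70 and 126 at 9 weeks (exact permutation p = 0.143, adjusted 0.186). The share of the single most abundant gene was 3.31% to 5.66% at 27 weeks and 3.98% to 5.62% at 9 weeks (exact permutation p = 0.333).

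Long transcripts give more reads than short ones, and dividing counts by gene length changed the picture at the top. On that scale the leading 10 genes held 17.83% to 22.002% at 27 weeks and 22.9% to 29.4% at 9 weeks, and the groups did not overlap. The means were 19.6% ± 1.6 and 26.4% ± 2.9 (SD, n = 5 each), with an exact permutation p of 0.00794, the smallest that 5 libraries against 5 can give, and 0.0516 after adjustment over the 13 measures. The leading 100 genes held 53.5% ± 1.8 at 27 weeks, against 59.2% ± 4.8 at 9 weeks (SD, n = 5 each; exact permutation p = 0.0159, adjusted 0.0688). Replicate 5 at 9 weeks was highest there, at 67.1%, and without it the difference was -3.70 percentage points, against -5.68 with it.

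**Figure D1:**
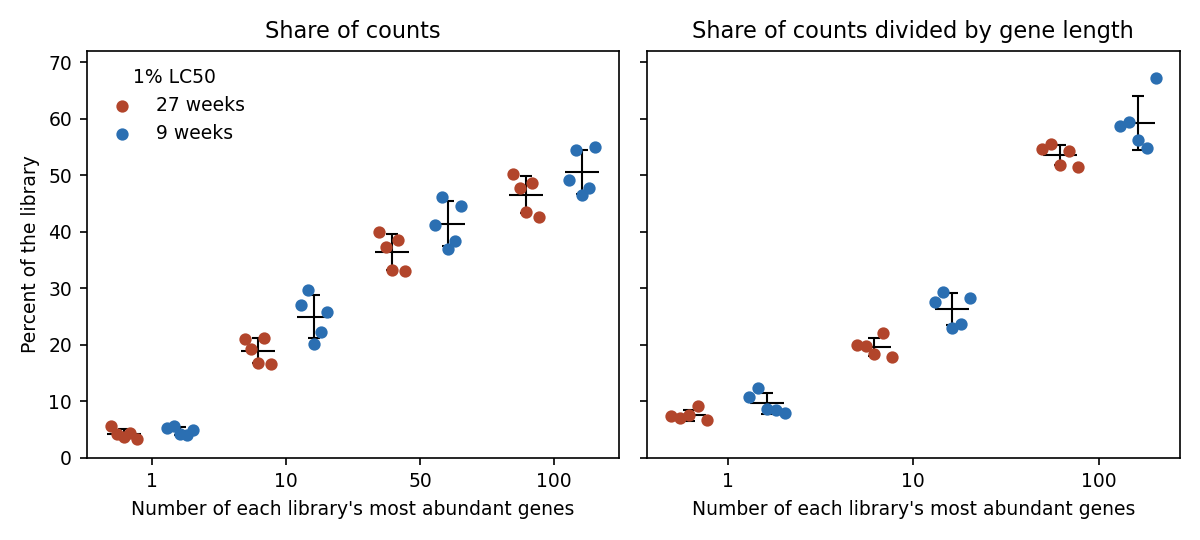
Share of each library held by its own most abundant genes (percent; left, counts; right, counts divided by gene length), with 1 point per library and black bars for the mean and SD of 5 libraries. For the leading 10 genes per length, the 27-week libraries lie between 17.83% and 22.002%, all below the 9-week libraries.

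The leading genes were largely the same at both ages. Of the 100 genes with the highest mean share at each age, 86 were shared and 14 were in only one list. Of the 10 genes with the highest mean over both ages, 8 had a lower mean share at 27 weeks, and together the 10 held 18.1% ± 2.1 at 27 weeks, against 24.7% ± 3.9 at 9 weeks (SD, n = 5 each). The gene of highest mean level held 3.56% ± 0.44 at 27 weeks, against 4.74% ± 0.73 at 9 weeks (SD, n = 5 each), and did not pass (log2 change -0.62, SE 0.24, edgeR adjusted p = 0.139). The sixth in rank had the widest range in fold terms of the 10 at each age, with 0.421% to 2.20% at 27 weeks and 0.552% to 5.62% at 9 weeks. The seventh held 0.892% to 1.13% at 27 weeks and 1.25% to 3.57% at 9 weeks (at most 2.13% without replicate 5), and missed the threshold (log2 change -1.26, SE 0.36, edgeR adjusted p = 0.0619). In this group of 10, the ranges of 4 genes did not overlap between the ages on CPM, each being lower at 27 weeks. CPM is the counts per 1000000 counts of a library after scaling its total by a TMM factor. Of the 4, 2 passed edgeR's test. Over all genes tested, 5.59% did not overlap and 2.85% passed. On shares of counts the fifth in rank, 1 of the 4, did overlap, with at most 1.86% at 27 weeks and at least 1.45% at 9 weeks.

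**Figure D2:**
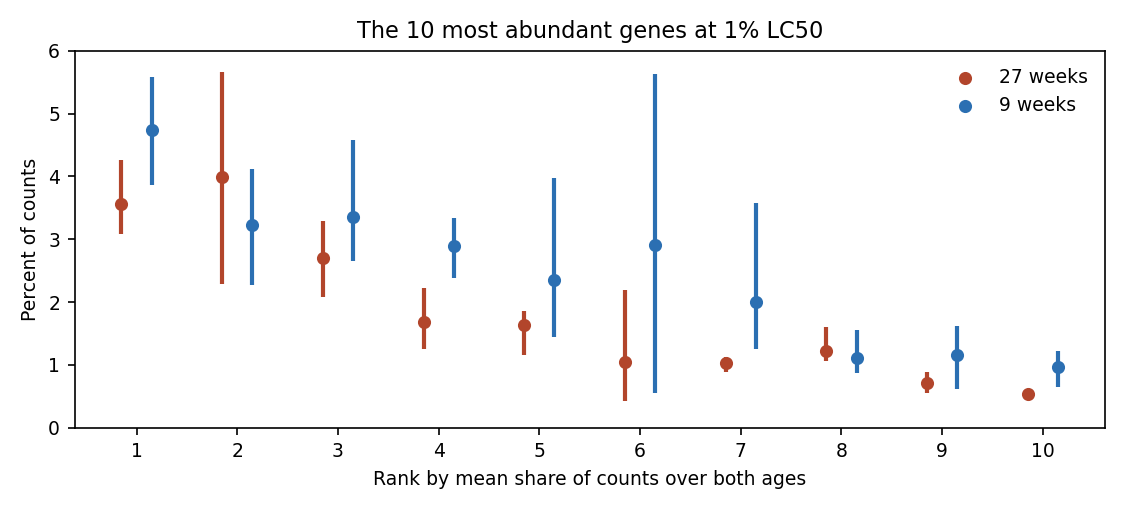
Share of counts (percent) of the 10 genes with the highest mean over both ages, ordered by that mean, with the mean as a point and the range of 5 libraries as a line. The means at 27 weeks lie below those at 9 weeks for 8 of the 10 genes, and the gene ranked sixth spans 0.552% to 5.62% at 9 weeks.

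Across all expressed genes, 461 of 16150 differed between 27-week and 9-week livers (2.85%; edgeR's quasi-likelihood test, Benjamini-Hochberg adjusted p under 0.05). Of these, 212 were higher at 27 weeks (1.31%) and 249 were lower (1.54%). The count rested on the libraries fitted: it was 25 with only the 1% groups in the fit, and 46 or 62 without replicate 3 or 2 at 27 weeks. The median log2 change was 1.795 among genes that rose and -1.25 among genes that fell, against -0.03 over all genes tested. Changes of 2-fold or more were found in 362 genes (2.24%), 186 higher (1.15%) and 176 lower (1.09%) at 27 weeks. Changes of 4-fold or more were found in 88 genes that rose and 66 that fell, and of 16-fold or more in 19 and 10. Unadjusted p was below 0.05 for 3719 genes (23.0%), of which 1605 were higher at 27 weeks (9.94%).

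Genes of every level took part. The share of genes that passed was 2.32% below a mean of 1 CPM, 2.87% from 1 to 10 CPM, 2.86% from 10 to 100 CPM, 4.17% from 100 to 1000 CPM and 3.09% above that. At the highest levels, of 1000 CPM or more, 2 of 162 genes rose and 3 fell. The median log2 change over all genes of a level ran from 0.28 below 1 CPM to -0.17 at 1000 CPM or more. These medians rest on TMM scaling and include replicate 5 at 9 weeks. By mean share of counts, 47 of the 100 genes with the highest mean were lower at 27 weeks, so by share they had no common direction. Their median log2 change after TMM scaling was -0.12, against -0.03 over all genes tested. Of these 100, 5.0% passed and 10.0% did not overlap between the ages, 7 lower and 3 higher at 27 weeks. Over all genes tested the ranges of 903 (5.59%) did not overlap, 462 lower (2.86%) and 441 higher (2.73%). Against the 9-week libraries other than replicate 5, 1396 genes did not overlap (8.64%), a count that fewer libraries also raise.

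**Figure D3:**
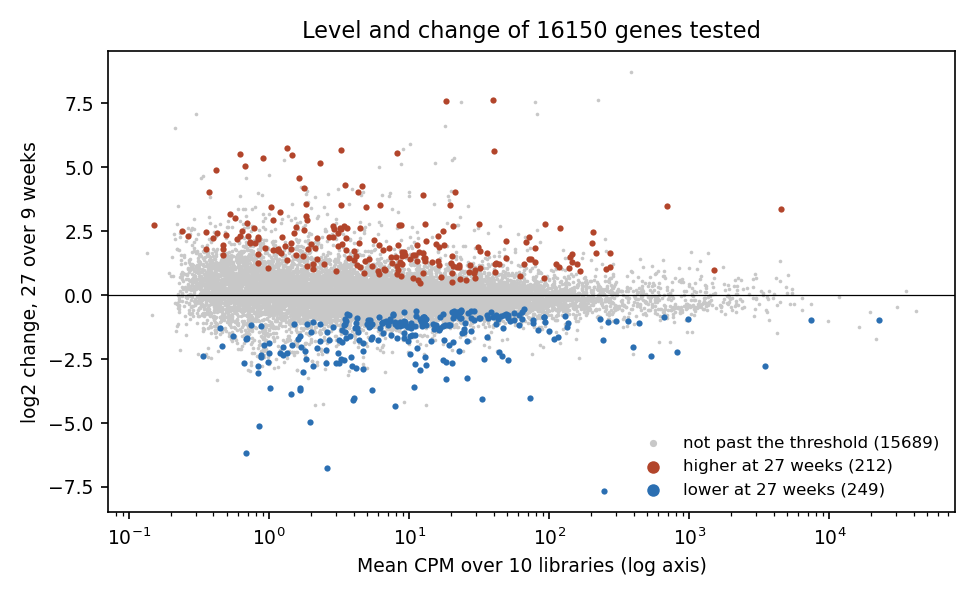
Each point is 1 of 16150 genes, placed by its mean CPM over the 10 libraries (log axis) and its log2 change, 27 over 9 weeks. The 212 genes higher and 249 genes lower at 27 weeks by edgeR are coloured and lie at every level.

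The typical gene that rose stood at 9.86 CPM at 27 weeks and at 2.64 CPM at 9 weeks (medians of group means over the 212 genes). The typical gene that fell stood at 5.23 CPM at 27 weeks and at 15.2 CPM at 9 weeks (249 genes). In the 9-week libraries at 10% of the LC50, the same genes had medians of 4.78 CPM and 9.97 CPM, both between the values of the 1% groups. The genes were picked for differing between the 1% groups, which by itself favours a middle value in another group. The ranges of the libraries did not overlap between the ages for 148 of the genes that rose (0.916% of genes tested) and 176 of those that fell (1.09%), where 441 genes in all did not overlap with 27 weeks higher (2.73%) and 462 with 27 weeks lower (2.86%).

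A few genes carried most of the counts that the changed genes held. The gene with most counts among those that rose held 43.1% of their counts at 27 weeks, and the leading 10 held 72.5%. Among genes that fell, the leading gene held 50.7% of their counts at 9 weeks and the leading 10 held 86.6%. The mean profiles of the ages differed by 15.01% of counts, taken as the share of counts that would have to move between genes to turn one profile into the other. The 461 genes that passed made up 14.6% of that difference, while the 100 most abundant genes made up 53.1% and the 10 most abundant 27.8%. These sets differ widely in abundance. Of the 461, the risers averaged 0.456% (9 weeks) and 2.08% (27 weeks) of a library, and the fallers 5.70% and 2.93%. Each library's leading 100 averaged 50.6% and 46.5%, and the 10 most abundant 24.7% and 18.1%. For their abundance, the 461 therefore contributed more than the 100, having been picked for differing. Pairs of one 27-week and one 9-week library differed by 12.0% to 32.5% of counts, with a median of 20.7%. Pairs of 27-week libraries differed by 11.27% to 16.22% (median 12.35%), and pairs of 9-week libraries by 12.31% to 31.61% (median 19.52%). Without replicate 5 at 9 weeks, the median was 18.8% between the ages and 17.0% within the 9-week group.

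Among genes that passed and whose libraries did not overlap between the ages, Nfu_g_1_020877 rose by the largest number of counts. It stood at 6597, 8586, 9721, 10720 and 5824 CPM in replicates 1 to 5 at 27 weeks, against 478, 633, 1846, 726 and 351 CPM in replicates 1 to 5 at 9 weeks. Every 27-week library was high, and the lowest of them held 3.15 times the level of the highest 9-week library. It was 10.27-fold higher, a log2 change of 3.36 with an SE of 0.68 (edgeR adjusted p = 0.0243). Per length, the gene ranked 24 among all genes at 27 weeks and 276 at 9 weeks. At 9 weeks and 10% of the LC50 it stood at 299 ± 323 CPM (SD, n = 5). The call ended without replicate 2 or 3 at 27 weeks (edgeR adjusted p = 0.0574 and 0.0583) and held without each of the other 8 libraries.

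The second in this order, Nfu_g_1_007647, stood at 865, 1558, 1522, 1459 and 932 CPM in replicates 1 to 5 at 27 weeks, against 68.3, 123, 180, 161 and 32.7 CPM in replicates 1 to 5 at 9 weeks. The groups were far apart, with the lowest 27-week library at 4.80 times the highest 9-week library. It was 11.2-fold higher, a log2 change of 3.49 with an SE of 0.46 (edgeR adjusted p = 0.00342). It passed in each of the 10 fits with 1 library left out, in the fit of the 1% groups alone, and by DESeq2 and limma voom, with or without sample weights. Its level at 9 weeks and 10% of the LC50 was 33.8 ± 18.7 CPM (SD, n = 5).

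Among genes that passed without overlap, the largest fall in mean CPM was that of Nfu_g_1_002363, the fourth by mean share over both ages. It stood at 12745, 14769, 15260, 21301 and 13317 CPM in replicates 1 to 5 at 27 weeks, against 29197, 35058, 22966, 27488 and 35623 CPM in replicates 1 to 5 at 9 weeks. Replicate 4 at 27 weeks came close to replicate 3 at 9 weeks, and the ranges did not overlap. It fell by 0.96 on the log2 scale, with an SE of 0.21 (edgeR adjusted p = 0.0338). Without replicate 1, 2, 3 or 5 at 27 weeks or replicate 2 at 9 weeks it did not pass (edgeR adjusted p 0.0564 to 0.0876), nor with only the 1% groups fitted (0.130). It stood at 26238 ± 4218 CPM at 9 weeks and 10% of the LC50 (SD, n = 5).

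Nfu_g_1_010874 fell more steeply, to 905, 715, 960, 1125 and 761 CPM in replicates 1 to 5 at 27 weeks, against 5294, 3241, 2896, 1830 and 17102 CPM in replicates 1 to 5 at 9 weeks. Replicate 5 at 9 weeks was far above the rest of its group. It fell by 2.77 on the log2 scale, with an SE of 0.50 (edgeR adjusted p = 0.0187). Without that library the log2 change was -1.88, and the gene still passed (edgeR adjusted p = 0.00590). The call ended with replicate 2 or 3 at 27 weeks left out (0.0560 and 0.0504) and with only the 1% groups fitted (0.0863). Its recovered length was 381 bases, and per length it ranked 35 at 27 weeks and 3 at 9 weeks. Without replicate 5 at 9 weeks it ranked 6 per length at that age, and its mean was 3315 CPM instead of 6073 CPM. The gene was named by its difference in mean CPM with that library included, so its being named leans on that library.

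**Figure D4:**
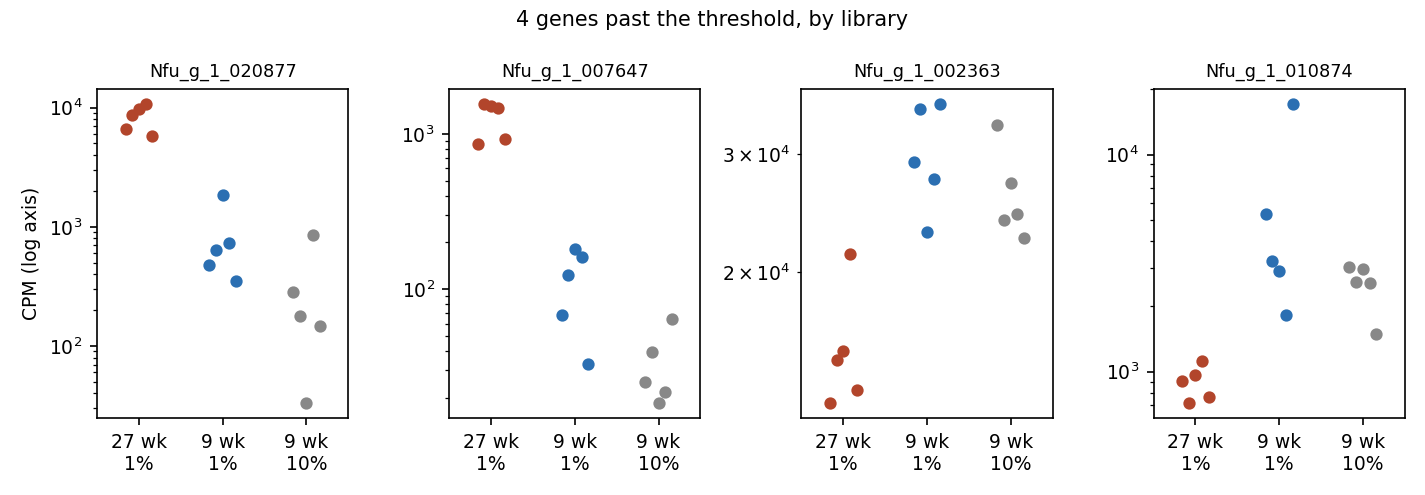
CPM (log axis, a scale of its own per gene) of 4 genes past the threshold in each library at 27 weeks and 1%, 9 weeks and 1%, and 9 weeks and 10% of the LC50. The 27-week libraries of Nfu_g_1_020877 and Nfu_g_1_007647 lie above all 9-week libraries, and those of Nfu_g_1_002363 and Nfu_g_1_010874 lie below them.

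Genes counted at one age alone were few among those seen in every library of that age. Of 26739 genes, 18113 had at least 1 count in every 27-week library and 16926 in every 9-week library (17674 in the 9-week libraries other than replicate 5). Only 6 genes were counted in all 5 libraries at 27 weeks and in none at 9 weeks, with at most 14 counts over 5 libraries, and 2 genes showed the reverse, with at most 10 counts. Another measure, at least 1 count in any library of one age and none at the other, gave 590 genes at 27 weeks and 433 at 9 weeks. The number of genes detected per library was 19708 to 20292 at 27 weeks and 18665 to 20279 at 9 weeks (exact permutation p = 0.0873, adjusted 0.162). In whole-tissue RNA, fewer cells of a type and less RNA per cell cannot be told apart.

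By the spread of each gene's level, libraries of 27-week fish were more alike than those of 9-week fish at 1% of the LC50. By rank correlation they were not clearly so once replicate 5 at 9 weeks was left out. The median Spearman's rho between pairs was then 0.952 at 9 weeks, against 0.956 at 27 weeks. The standard deviation of log2 CPM (prior count of 2) between libraries had a median over genes of 0.30 at 27 weeks and 0.63 at 9 weeks. It was 0.39 at 9 weeks without replicate 5, and 0.30 in the 9-week 10% group. The standard deviation was larger at 27 weeks in 18.0% of genes, and in 36.8% once replicate 5 at 9 weeks was left out. Each library's deviation from its group, the median over genes of the absolute log2 difference from the median of the other 4 libraries, was 0.269, 0.222, 0.268, 0.218 and 0.253 in replicates 1 to 5 at 27 weeks, against 0.389, 0.306, 0.340, 0.396 and 0.918 in replicates 1 to 5 at 9 weeks. All 27-week libraries lay below all 9-week libraries at 1% (two-sided exact permutation p = 0.00794, the smallest possible). Adjusted over the 13 measures, the exact test gave p = 0.0516, which missed the threshold of 0.05. A measure at the smallest possible p passes this adjustment only if enough of the other measures also have low p-values. In the 9-week 10% group the deviations were 0.220 to 0.287, overlapping those at 27 weeks. Libraries of a group share the values they are compared with, so these deviations are not independent. The test shuffled them without recomputing them for each shuffled group, so its p-values for the deviations are approximate. Recomputed without replicate 5, the 9-week deviations at 1% were 0.289 to 0.398, still above all 27-week values (exact permutation p = 0.0159, the smallest that 5 against 4 can give). Each was then taken from the median of fewer libraries than at 27 weeks, which can widen it.

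The spread was narrower at 27 weeks than in the 9-week 1% group at all levels, and least so at the lowest. Below 1 CPM the median standard deviation was 0.62 at 27 weeks and 0.86 at 9 weeks, or 0.65 without replicate 5. From 10 to 100 CPM it was 0.21 at 27 weeks and 0.50 at 9 weeks, or 0.30 without replicate 5. At 1000 CPM or more it was 0.24 at 27 weeks and 0.61 at 9 weeks, or 0.36 without replicate 5. The ratio of 9 to 27 weeks, with replicate 5 left out, was 1.04 below 1 CPM, 1.41 from 10 to 100 CPM and 1.47 at 1000 CPM or more. In the 9-week 10% group the median standard deviation was 0.56, 0.23 and 0.20 at these levels, not always above that at 27 weeks.

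**Figure D5:**
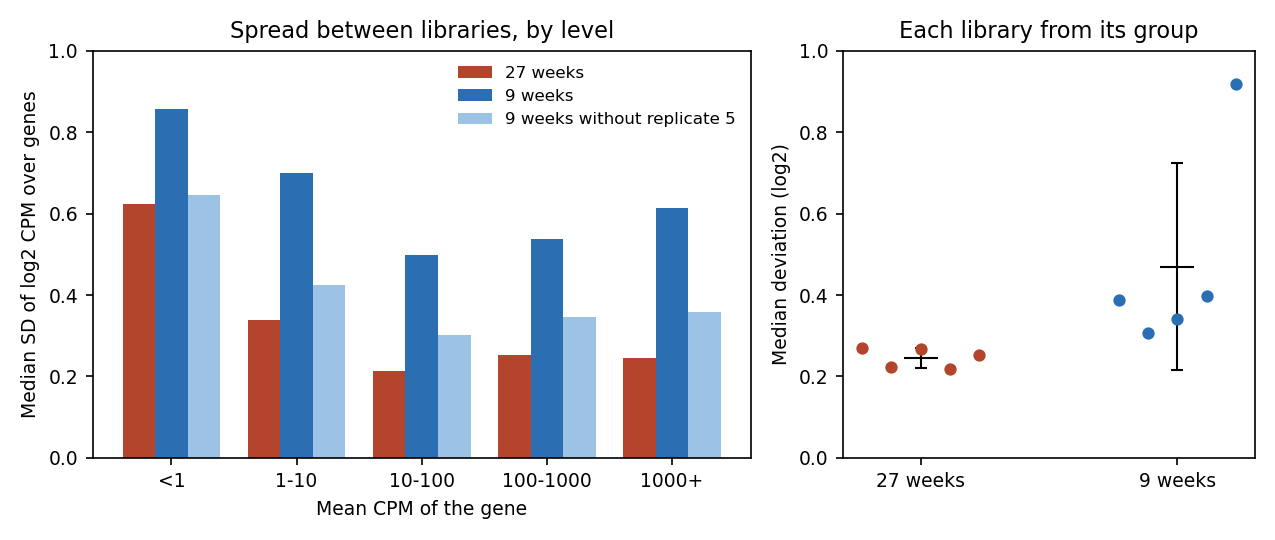
Left, median over genes of the SD of log2 CPM between libraries, by the gene's mean CPM, at 27 weeks, at 9 weeks and at 9 weeks without replicate 5. Right, each library's median absolute log2 deviation from the other libraries of its group, with the mean and SD. All groups drawn are at 1% of the LC50. All 27-week values lie between 0.218 and 0.269, below every 9-week value at that dose. The 9-week 10% group, not drawn, spans 0.220 to 0.287.

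Some genes went against this pattern. A standard deviation of 1 or more on the log2 scale was found in 1110 genes at 27 weeks and 3864 at 9 weeks (1441 without replicate 5), and 446 genes reached it at both ages with replicate 5 left out. Of the genes variable at 27 weeks, 247 had a standard deviation under 0.5 at 9 weeks without replicate 5, and 298 genes showed the reverse. With replicate 5 these counts were 83 and 1871. Replicate 3 at 27 weeks was more than 8-fold above the median of its group in 120 genes, against 17 to 54 for the other 27-week libraries, and these genes held 1.67% of its counts. Replicate 5 at 27 weeks was more than 8-fold below in 98 genes, the most in its group. Of the 120 genes high in replicate 3, 9 passed as higher at 27 weeks, as did 1.31% of all genes tested. The 120 were picked by a high 27-week library, which itself raises the 27-week mean.

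Single libraries weighed on part of the list. In 21 of the 212 genes that rose, 1 library held more than 50% of the CPM of the 27-week group, and in 14 of the 21 it was replicate 3. In 25 of the 249 genes that fell, 1 library held more than 50% of the CPM of the 9-week group, and in 14 of the 25 it was replicate 5. Over all genes tested, 1 library held more than 50% in 2.98% of genes at 27 weeks and in 6.06% at 9 weeks. The median standard deviation of the genes that rose was 0.56 at 27 weeks and 0.54 at 9 weeks, against 0.30 at 27 weeks and 0.63 at 9 weeks for genes that did not pass. Without replicate 5, the 9-week medians were 0.49 for genes that rose and 0.39 for genes that did not pass, so the order of these at 9 weeks turned with that library. The median of the genes that fell was 0.34 at 27 weeks and 0.59 at 9 weeks, or 0.40 without replicate 5.

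The length of the list depended on the libraries and the method. It was 241, 62, 46, 240 and 200 genes without replicates 1 to 5 at 27 weeks, 254 without replicate 2 at 9 weeks, and 345 to 626 without replicate 1, 3 or 4 of that age. Leaving out replicate 5 at 9 weeks gave 533 genes, of which 345 were among the 461 and changed the same way. Genes higher at 27 weeks were 46.0% of the list, but 57.5% to 72.5% of it without a 27-week library, and 33.9% to 50.3% without a 9-week library. With only the 1% groups fitted, 25 genes passed (0.161% of 15491), all of them among the 461, and 21 were higher at 27 weeks. RLE size factors in place of TMM gave 486 genes (3.01%). DESeq2 called 1687 genes (10.4%), including 457 of the 461, and limma voom 225 (1.39%), including 217. Limma voom with sample quality weights, in which replicate 5 at 9 weeks had a weight of 0.0754 and the other 14 libraries weights of 0.541 to 2.01, called 430 genes (2.66%), including 271 of the 461.

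The genes least affected by these choices were mostly higher at 27 weeks, but some fits they had to pass leaned the same way. Genes higher at 27 weeks were 57.5% to 72.5% of the list without a 27-week library, but 33.9% to 50.3% without a 9-week library. In all 10 fits with 1 library left out 39 genes passed in the same direction, of which 28 were higher and 11 lower. A subset of 20 also passed by DESeq2, by limma voom with and without weights and with only the 1% groups fitted, with 16 higher and 4 lower at 27 weeks. These 20 had to be among the 25 genes of the last fit, of which 21 were higher, so that fit itself favoured this direction. The 16 had log2 changes of 1.46 to 5.05, with a median of 2.37, and median levels of 27.6 CPM at 27 weeks and 5.30 CPM at 9 weeks. All 16 had groups that did not overlap. The 4 that fell had log2 changes of -7.68 to -1.49, and 3 of them did not overlap. Over all genes tested, 2.73% did not overlap with 27 weeks higher and 2.86% with 27 weeks lower. The 20 were picked for passing all these fits, which itself favours groups without overlap.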

How the data were processed

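The authors deposited raw counts per gene; the tools named in the submitters' processing notes are featureCounts 1.4.6-p4, STAR 2.4.1d and CASAVA 1.8.2, while settings, build, annotation and strandedness are not given in sources used here, so counts of overlapping genes and near-identical copies are uncertain. Another 10 columns outside the sample list were not used. Deposited tables labelled RPKM were treated as a score: their divisors were the totals of libraries, recycled down the rows with a period of 35, and the 20 totals of the series were found among them (relative tolerance 0.0001). They gave only gene lengths, for 20959 of 26739 genes. Of these lengths, 7568 came within 0.05 of a whole number, so lengths and values per length are approximate. None (0) of the identifiers matched RefSeq's genes of assembly NfurGRZ-RIMD1, so the gene lists planned could not be used.

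The test of each gene used edgeR 4.0.16 under R 4.3.3 (genes kept by filterByExpr, TMM, quasi-likelihood F-test, 15 libraries, 1 mean per group, 2-sided, Benjamini-Hochberg at 0.05). This fit pools each gene's spread over 3 groups, whose spreads differed. It was checked only on simulated counts with the same spread in all groups, so that check does not cover unequal spreads. Standard errors are the absolute log2 change over the square root of F. Alternatives were RLE size factors, robust edgeR, DESeq2 1.42.0, limma 3.58.1 voom, other filters and library sets. Library measures were compared by exact permutation of the 10 libraries. Named genes are the 2 that rose and the 2 that fell with the largest difference in mean CPM among those past the threshold without overlap. Replicate numbers were given in list order and are names alone. Libraries of a group differed by a chi-square per degree of freedom of 63.1 to 400.4 (20 pairs), so none repeated another within sampling noise. The members, measures and lists were chosen with earlier results of these data known.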

Additional observations from a re-analysis of the deposited data

Results flagged for a closer look

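Values far from the rest of their group were looked for in 36 sets of 5 libraries with Dixon's criterion, which by chance marks about 1 in 20 sets, and 4 were found, all at 9 weeks. Replicate 5 at 9 weeks deviated from its group by a median of 0.918 on the log2 scale, where the next library stood at 0.396. Its mean Spearman's rho with the other 9-week libraries was 0.824, where the next lowest was 0.914. The deviation and the mean rho both measure how far this library stood from its group, so they are not separate marks. The same library held 17102 CPM of Nfu_g_1_010874, against 5294 CPM in the next. That gene was picked by a mean that includes this value, so the rate of 1 in 20 does not apply to it. Replicate 3 at 9 weeks held 1846 CPM of Nfu_g_1_020877, against 726 CPM in the next. No 27-week library was marked in any of its 18 sets.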

How the results depend on the processing

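The count of 461 genes was 486 with RLE size factors, 431 with robust edgeR, 308 without a filter on low counts, 397 at a mean CPM of 1 or more and 342 with all 20 libraries. It moved by more than 1.5 times with DESeq2 (1687), limma voom (225) and only the 1% groups (25), and ranged from 46 to 626 with 1 library left out. The cause was not tested. The difference in the share of the leading 100 genes, -4.04 percentage points, kept its sign and did not pass without any 1 library (-5.06 to -2.92). It passed for the leading 10 genes (-6.07; exact permutation p = 0.0238) and per length (-5.68; exact permutation p = 0.0159), unadjusted. The difference in median standard deviation, -0.33, kept its sign in 14 alternatives, and was -0.09 without replicate 5 at 9 weeks and -0.11 as a median absolute deviation. That difference itself was not tested. The permutation test was of each library's deviation from its group, held fixed while libraries were shuffled, so its p is approximate. Its unadjusted p was the smallest possible in each, which says nothing of stability. No paired analysis was possible because replicate numbers only name libraries. Exact tests of 5 libraries against 5 cannot go below 0.00794.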
